A study of Mus musculus with 6 samples.

Results

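The genes described here encode 46 lysosomal enzymes, lysosomal membrane proteins and related proteins, taken from a count table of 38561 mouse genes by their deposited gene symbols. They comprise 9 peptidases, 10 glycosidases, 4 sulphatases, 6 lipid hydrolases or their activators, 2 cholesterol exporters, 10 membrane proteins, 4 proton pump subunits and 1 transcription factor. RNA was measured in undifferentiated, feeder-free mouse embryonic stem cell (ESC) cultures of strain 129X1/SvJ x 129S1/Sv, kept in serum replacement with leukemia inhibitory factor at passages 13 to 17. The cultures were sorted by flow cytometry on the adhesion molecule PECAM1, found on the surface of ESCs, and the growth factor receptor PDGFRa, a marker of primitive endoderm. The PDGFRa-only fraction carried PDGFRa without PECAM1, the double-positive fraction carried both proteins, and the PECAM1-only fraction carried PECAM1 without PDGFRa. Each fraction had 2 libraries, made from amplified RNA of 100000 sorted events, and all 3 came from cultures of the same strain and medium. The labels name no clone or line, and they do not say whether the libraries of a fraction came from separate cultures, so every p measures only the spread between these libraries.

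Lysosomes are acidic organelles in which hydrolases break down proteins, glycans, sulphated sugars and lipids delivered by endocytosis and autophagy. A proton pump in the membrane keeps the lumen acidic, heavily glycosylated proteins such as LAMP1 and LAMP2 line the membrane, and most soluble hydrolases reach the organelle by a mannose 6-phosphate tag. Transcription factors of the MiT/TFE family, among them TFEB, bind the sequence GTCACGTG, called the CLEAR element, at many lysosomal genes. Visceral endoderm, a derivative of primitive endoderm, is known for strong endocytosis and lysosomal digestion of maternal protein.

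The CLEAR element is shown because it is a known regulatory sequence of many lysosomal genes. RefSeq promoters (build GRCm38.p6, 250 bases before to 50 bases after the annotated start) were at hand for 38 of the 46 genes. A gene was counted if any of its promoters held a match, and shares are of genes with a promoter. The 8 letters GTCACGTG, searched on both strands, occurred in 13 of the 38 genes (34.2%), against 4.97% of tested and 2.55% of all genes. Among 56 other lysosomal and proton pump genes, 4 held it (7.14%). Its core CACGTG, which every GTCACGTG also holds, was found in 16 of the 38 (42.1%), against 12.1% of tested and 8.09% of all genes. The palindrome TCACGTGA, which can overlap GTCACGTG, was found in 8 of the 38 (21.1%), against 2.2% of tested and 1.12% of all genes. Each line gives 30 bases around the site nearest upstream of the start, read on the strand that carries the motif, with the motif in capitals.
Arsa, chr15:89477424-89477453, minus strand: ttcaactcagtGTCACGTGttgtctgctcc
Atp6v0d1, chr8:105566051-105566080, minus strand: gccctactgcgGTCACGTGagacgcggtgc
Cd164, chr10:41519402-41519431, minus strand: agcgcgcgccgGTCACGTGagcagcccggc
Cln3, chr7:126583339-126583368, plus strand: gcaggttggggGTCACGTGacagtacccgt
Ctsa, chr2:164833748-164833777, plus strand: atgagcaaactGTCACGTGatgcagatgct
Ctsd, chr7:142387907-142387936, plus strand: gccctcaacggGTCACGTGagacgcgggcg
Gla, chrX:134601183-134601212, minus strand: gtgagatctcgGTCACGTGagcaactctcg
Glb1, chr9:114401017-114401046, plus strand: gctgcttctgaGTCACGTGgcctacagagg
Lamp1, chr8:13159122-13159151, minus strand: cacgtgatgtgGTCACGTGccagtcggcat
Lgmn, chr12:102439125-102439154, minus strand: atggaatgtctGTCACGTGgtccattttat
Mcoln1, chr8:3500463-3500492, minus strand: catgcgccgcgGTCACGTGagcggggcgcc
Naglu, chr11:101070008-101070037, plus strand: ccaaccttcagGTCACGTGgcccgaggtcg
Sgsh, chr11:119355521-119355550, plus strand: cgctccccacgGTCACGTGcacggcaggcc

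The sites of these 13 genes began 5 bases (Atp6v0d1) to 196 bases (Gla) upstream of the annotated start, and Ctsa, Ctsd, Cln3 and Mcoln1 held a further match. A match in these windows is a description of the sequence and not a measured binding site. Of the 13 genes with the motif, 12 were higher in PDGFRa-only than in PECAM1-only cells, against 30.1% of all tested genes. Their median log2 fold change was 2.103. Of the 24 tested genes with a promoter and no match, 22 were higher and 1 was lower, with a median of 1.84. Of all tested genes, 28.8% were lower. Both groups had a larger higher share than all tested genes, and calls among all tested genes with the motif were not counted. The values ran from 0.45 to 5.41 with the motif and from -1.41 to 10.51 without it.

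Library depth ran from 4809661 to 7273669 counts. Levels are CPM, counts scaled to the normalised size of the library, and tests are edgeR quasi-likelihood tests with Benjamini-Hochberg adjustment over 13909 tested genes, called at an adjusted p below 0.05. The sorted markers followed the gates: Pdgfra stood at 509 and 605 CPM in PDGFRa-only, 552 and 518 CPM in double-positive, and 2.04 and 1.88 CPM in PECAM1-only libraries, and Pecam1 at 1.57 and 1.51, 53.8 and 44.9, and 166 and 143 CPM in the same order of fractions. The summed level of 8 primitive endoderm markers was 23950 and 24420 CPM in PDGFRa-only, 15490 and 16600 CPM in double-positive, and 73.5 and 93.9 CPM in PECAM1-only libraries. The 8 pluripotency markers summed to 153 and 109, 509 and 441, and 1487 and 1577 CPM. The PDGFRa-only libraries differed more from each other than those of the other fractions did, with a chi-square per degree of freedom of 28.4 against 5.81 in double-positive and 6.08 in PECAM1-only libraries. That value is a mean over genes on which very abundant genes weigh heavily. Such a gene, the non-member RP23-81C12.3, took 7.71% of the counts of PDGFRa-only replicate 1, against 1.52% to 2.87% in the other libraries. The correlation of log2 CPM between replicates was 0.977 in PDGFRa-only, 0.984 in double-positive and 0.984 in PECAM1-only libraries. Without PDGFRa-only replicate 1, the numbers of higher lysosomal genes over PECAM1-only and over double-positive cells stayed close to those given below for all libraries. Over double-positive cells, however, some calls were lost and others gained, with 1 PDGFRa-only library left. In sorted bulk samples such as these, fewer cells of a type and less RNA per cell cannot be told apart.

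Macrophages are rich in lysosomes, so their markers were read beside the lysosomal genes. Of 13 macrophage markers, 6 had no count in any library (Ptprc, Adgre1, C1qa, C1qb, C1qc and Aif1) and 9 stayed under 1 CPM in every library. Their summed level was 8.08 and 9.82 CPM in PDGFRa-only, 8.65 and 10.3 CPM in double-positive, and 7.28 and 5.02 CPM in PECAM1-only libraries. Csf1r, the receptor for a macrophage growth factor, stood at 5.39 and 6.35, 2.68 and 4.85, and 0.582 and 0.314 CPM in the same order. The 7 fibroblast markers summed to between 1.88 and 6.10 CPM over the 6 libraries.

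The lysosomal genes took a larger share of the counts in cells that carried PDGFRa. They held 1.30% and 1.60% of all counts in the PDGFRa-only libraries, 1.07% and 1.08% in the double-positive libraries, and 0.311% and 0.349% in the PECAM1-only libraries. The fractions did not overlap, and both PDGFRa-only libraries lay above both double-positive ones. The summed level was 15780 ± 2466 CPM in PDGFRa-only, 11130 ± 162 CPM in double-positive and 2947 ± 237 CPM in PECAM1-only cells (SD, n = 2 each), a ratio to PECAM1-only of 5.36 for PDGFRa-only and 3.78 for double-positive cells. Ctsl supplied 28.6% and 39.3% of the lysosomal counts in PDGFRa-only, 36.1% and 34.9% in double-positive, and 6.02% and 6.54% in PECAM1-only libraries. Without Ctsl the ratios were 3.74 and 2.60, so the difference between fractions did not rest on this gene alone.

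**Figure D1:**
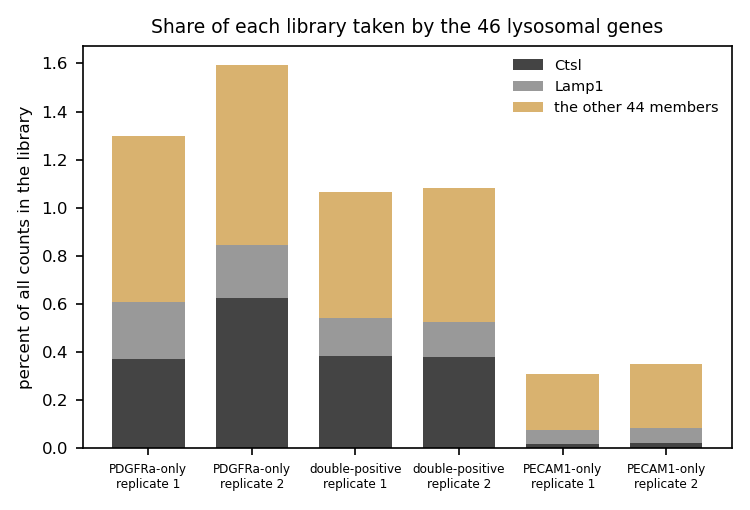
Percent of all counts in each library (vertical axis) taken by the 46 lysosomal genes, split into Ctsl, Lamp1 and the other 44; each bar is 1 library. The PDGFRa-only bars reach 1.30% and 1.60% and the PECAM1-only bars 0.311% and 0.349%.

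In PDGFRa-only over PECAM1-only cells, 41 of the 45 tested lysosomal genes were higher, against 30.1% of all tested genes. Of these, 34 were higher by at least 2-fold, against 20.6% of all tested genes. Manba and Laptm4b were lower, against 28.8% of all tested genes, and Cln3 and Tfeb did not pass. The median log2 fold change was 1.79 over the lysosomal genes and 0.01 over all genes tested. Arsb, a sulphatase of dermatan sulphate breakdown, had between 2 and 9 counts in each library and was too low to test. Calls for Glb1, Man2b1, Galc and Atp6v1h were lost under at least 1 other processing setting, and the other 39 of the 43 calls were kept in every setting in which the gene was tested.

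**Figure D2:**
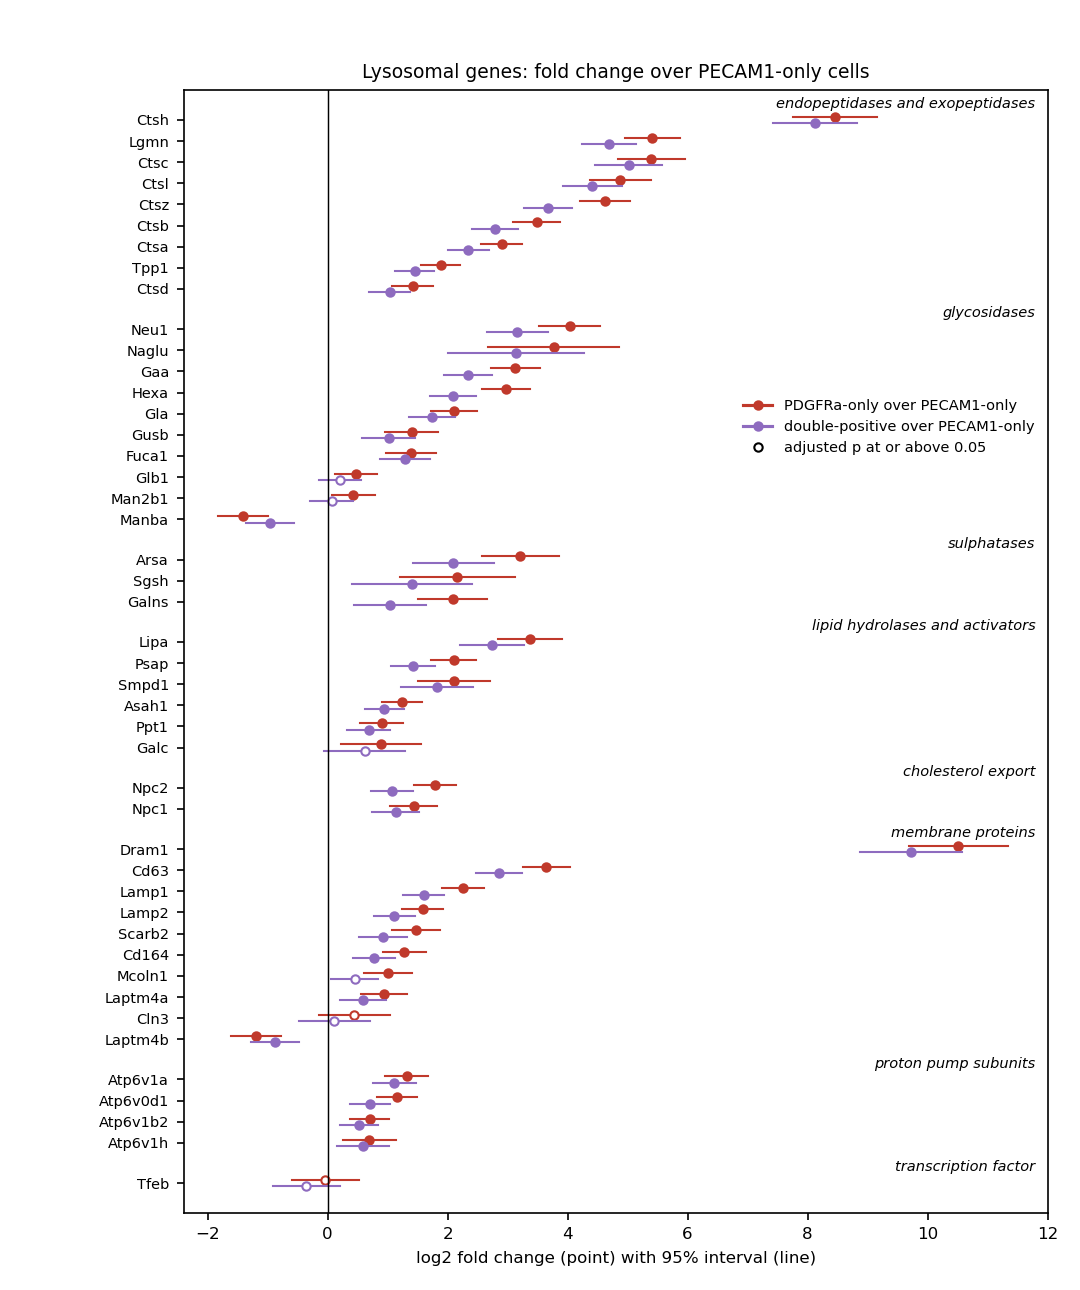
Log2 fold change of each tested lysosomal gene over PECAM1-only cells (horizontal axis), with genes grouped by role; points are edgeR estimates, lines their 95% intervals, and open points did not pass. The peptidases reach 8.46 (Ctsh), Dram1 lies at 10.51, and Manba and Laptm4b lie below 0 in both comparisons.

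The peptidases differed most as a group: all 9 were higher in PDGFRa-only cells, by 1.42 to 8.46 on the log2 scale, with a median of 4.63. Ctsl, the cysteine endopeptidase cathepsin L (chr13:64359337-64370890, GRCm38), stood at 4021 and 6880 CPM in PDGFRa-only, 3975 and 3926 CPM in double-positive, and 167 and 204 CPM in PECAM1-only libraries. The 4 libraries of PDGFRa-carrying cells were all far above the PECAM1-only pair, while PDGFRa-only replicate 1 was level with the double-positive libraries. Its log2 fold change was 4.88 ± 0.24 (SE; adjusted p = 6.84e-13, edgeR).

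Ctsh, an aminopeptidase of the same family, had 219 and 327 CPM in PDGFRa-only, 214 and 221 CPM in double-positive, and 0.291 and 1.25 CPM in PECAM1-only libraries. It was close to undetected in PECAM1-only cells, with 2 and 8 counts, and its log2 fold change was 8.46 ± 0.34 (SE; adjusted p = 2.32e-14, edgeR). Leaving out PECAM1-only replicate 1 gave 7.76, leaving out replicate 2 gave 9.78, and limma on the RPKM values gave 5.98, so the size is less certain than the SE shows. Lgmn, the asparaginyl endopeptidase legumain that processes cathepsins (chr12:102394084-102439813), had 407 and 514, 240 and 319, and 10.5 and 11.1 CPM in PDGFRa-only, double-positive and PECAM1-only libraries. The 3 fractions did not overlap, in that order from high to low, and the log2 fold change was 5.41 ± 0.22 (SE; adjusted p = 2.32e-14, edgeR).

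Ctsc, a dipeptidyl peptidase that activates other proteases, had 141 and 235 CPM in PDGFRa-only, 130 and 161 CPM in double-positive, and 4.22 and 4.70 CPM in PECAM1-only libraries. The PDGFRa-only and double-positive libraries overlapped, and the log2 fold change over PECAM1-only cells was 5.40 ± 0.27 (SE; adjusted p = 7.79e-13, edgeR). Ctsz, a carboxypeptidase, had 373 and 443, 204 and 218, and 14.1 and 19.0 CPM in PDGFRa-only, double-positive and PECAM1-only libraries, with no overlap between fractions and a log2 fold change of 4.63 ± 0.20 (SE; adjusted p = 5.22e-14, edgeR). Ctsd, the aspartic endopeptidase cathepsin D, was already abundant in PECAM1-only cells: it had 548 and 565, 398 and 457, and 181 and 236 CPM in PDGFRa-only, double-positive and PECAM1-only libraries, and the smallest log2 fold change of the peptidases, 1.42 ± 0.17 (SE; adjusted p = 2.88e-07, edgeR). The log2 fold changes of the other peptidases were 3.48 for Ctsb, 2.90 for Ctsa, the carboxypeptidase that stabilises sialidase and beta-galactosidase, and 1.88 for the tripeptidyl peptidase Tpp1.

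Of the 10 glycosidases, which remove sugars from glycoproteins, glycolipids and glycogen, 9 were higher in PDGFRa-only cells and Manba was lower. Neu1, the lysosomal sialidase, had 87.3 and 94.9 CPM in PDGFRa-only, 48.8 and 50.7 CPM in double-positive, and 3.79 and 7.37 CPM in PECAM1-only libraries, with no overlap and a log2 fold change of 4.04 ± 0.25 (SE; adjusted p = 1.17e-11, edgeR). Naglu, of heparan sulphate breakdown, changed by 3.77, but it had 6 and 1 counts in the PECAM1-only libraries, and leaving out PECAM1-only replicate 1 gave 5.41, replicate 2 gave 3.07. Gaa, the acid alpha-glucosidase of glycogen, changed by 3.13 and Hexa, the alpha subunit of beta-hexosaminidase, by 2.98. Gla (2.103), Gusb (1.40) and Fuca1 (1.39) changed less. Glb1, beta-galactosidase, and Man2b1, alpha-mannosidase, were the least changed of those that passed, at 0.47 (adjusted p = 0.0216, edgeR) and 0.43 (adjusted p = 0.0366, edgeR), and neither passed with upper-quartile or library-size scaling.

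Manba, the beta-mannosidase that acts late in the breakdown of N-linked glycans (chr3:135485611-135571404), went the other way. It had 39.3 and 42.5 CPM in PDGFRa-only, 64.4 and 47.3 CPM in double-positive, and 126 and 91.4 CPM in PECAM1-only libraries. Both PECAM1-only libraries lay above the other 4, and the log2 fold change was -1.41 ± 0.20 (SE; adjusted p = 3.44e-06, edgeR).

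All 3 tested sulphatases were higher in PDGFRa-only cells: Arsa, which removes sulphate from sulphatide, by 3.21, Sgsh by 2.16 and Galns by 2.08 on the log2 scale. Sgsh had 2.80 without PECAM1-only replicate 2. All 6 lipid genes were higher as well. Lipa, the acid lipase of cholesteryl esters and triglycerides, changed by 3.37, and Psap, the precursor of the saposin activators, and Smpd1, acid sphingomyelinase, by 2.103 each. Asah1, acid ceramidase (1.24), Ppt1, a thioesterase (0.90), and Galc, galactosylceramidase (0.89), changed less, and Galc had 0.13 without PDGFRa-only replicate 2 (adjusted p = 0.762, edgeR). Npc2 and Npc1, which hand cholesterol out of the lysosome, were higher by 1.79 and 1.43.

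Among the 10 membrane proteins, 8 were higher, 1 was lower and 1 did not pass. Dram1, a p53-induced membrane protein linked to autophagy (chr10:88322804-88379080), had 135 and 144 CPM in PDGFRa-only, 73.0 and 89.5 CPM in double-positive, and 0.146 and 0 CPM in PECAM1-only libraries. Nearly all of its counts were in PDGFRa-carrying cells, with 1559 in PDGFRa-only and 1036 in double-positive libraries against 1 in PECAM1-only libraries. The normalised ratio was 1865, with an exact 95% counting interval of 334 to 73700, and that of double-positive to PECAM1-only cells was 1077 (193 to 42570). The fitted log2 values, 10.51 and 9.73, rest on that 1 count and are no bound.

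Lamp1, a main glycoprotein of the lysosomal membrane (chr8:13159161-13175338), had 2547 and 2395 CPM in PDGFRa-only, 1621 and 1510 CPM in double-positive, and 498 and 536 CPM in PECAM1-only libraries. Its relative Lamp2 had 216 and 215, 143 and 168, and 65.2 and 78.6 CPM in the same order. Neither gene overlapped between fractions, and the log2 fold changes were 2.26 ± 0.17 for Lamp1 (SE; adjusted p = 2.48e-10, edgeR) and 1.59 ± 0.17 for Lamp2 (SE; adjusted p = 5.16e-08, edgeR). Cd63, a tetraspanin of late endosomes, had 240 and 226, 142 and 129, and 16.01 and 21.3 CPM in PDGFRa-only, double-positive and PECAM1-only libraries (log2 fold change 3.64 ± 0.19, SE; adjusted p = 9.07e-13, edgeR). Its value is uncertain, because the pseudogene Cd63-ps is 98.5% identical over 812 bases and had 5191 counts of its own, with a log2 fold change of 3.496.

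Mcoln1, the calcium channel of the lysosomal membrane, had 67.1 and 65.9 CPM in PDGFRa-only, 47.5 and 42.9 CPM in double-positive, and 28.2 and 38.0 CPM in PECAM1-only libraries, with a log2 fold change of 1.01 ± 0.19 (SE; adjusted p = 0.000106, edgeR). The fractions did not overlap. Scarb2, the receptor that carries glucocerebrosidase to lysosomes, changed by 1.47 and Cd164, a sialomucin, by 1.28. Cln3, a membrane protein mutated in a neuronal storage disease, had a value of 0.45 and did not pass (adjusted p = 0.183, edgeR).

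The related transmembrane proteins Laptm4a and Laptm4b differed in direction. Laptm4a had 103 and 100 CPM in PDGFRa-only, 65.9 and 92.9 CPM in double-positive, and 49.1 and 56.8 CPM in PECAM1-only libraries, with a log2 fold change of 0.94 ± 0.18 (SE; adjusted p = 0.000167, edgeR). Laptm4b had 22.9 and 24.9, 27.1 and 32.4, and 48.6 and 61.0 CPM in the same order, with a log2 fold change of -1.19 ± 0.20 (SE; adjusted p = 2.81e-05, edgeR). For Laptm4a the PECAM1-only libraries were the lowest, and for Laptm4b the highest. A pseudogene, Gm6705, is 96.6% identical to Laptm4b over 685 bases and is not in the count table. Laptm4b reads that also matched it could have been lost, which was not tested.

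The 4 proton pump subunits were all higher, by less than most hydrolases: Atp6v1a by 1.32, Atp6v0d1 by 1.16, and Atp6v1b2 and Atp6v1h by 0.70 each. Tfeb, a transcription factor that controls lysosomal genes, had 11.2 and 9.97 CPM in PDGFRa-only, 8.81 and 8.14 CPM in double-positive, and 9.17 and 12.5 CPM in PECAM1-only libraries. The PDGFRa-only values lay between the PECAM1-only ones, and the log2 fold change was -0.04, with a 95% interval of -0.60 to 0.52 (adjusted p = 0.912, edgeR).

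**Figure D3:**
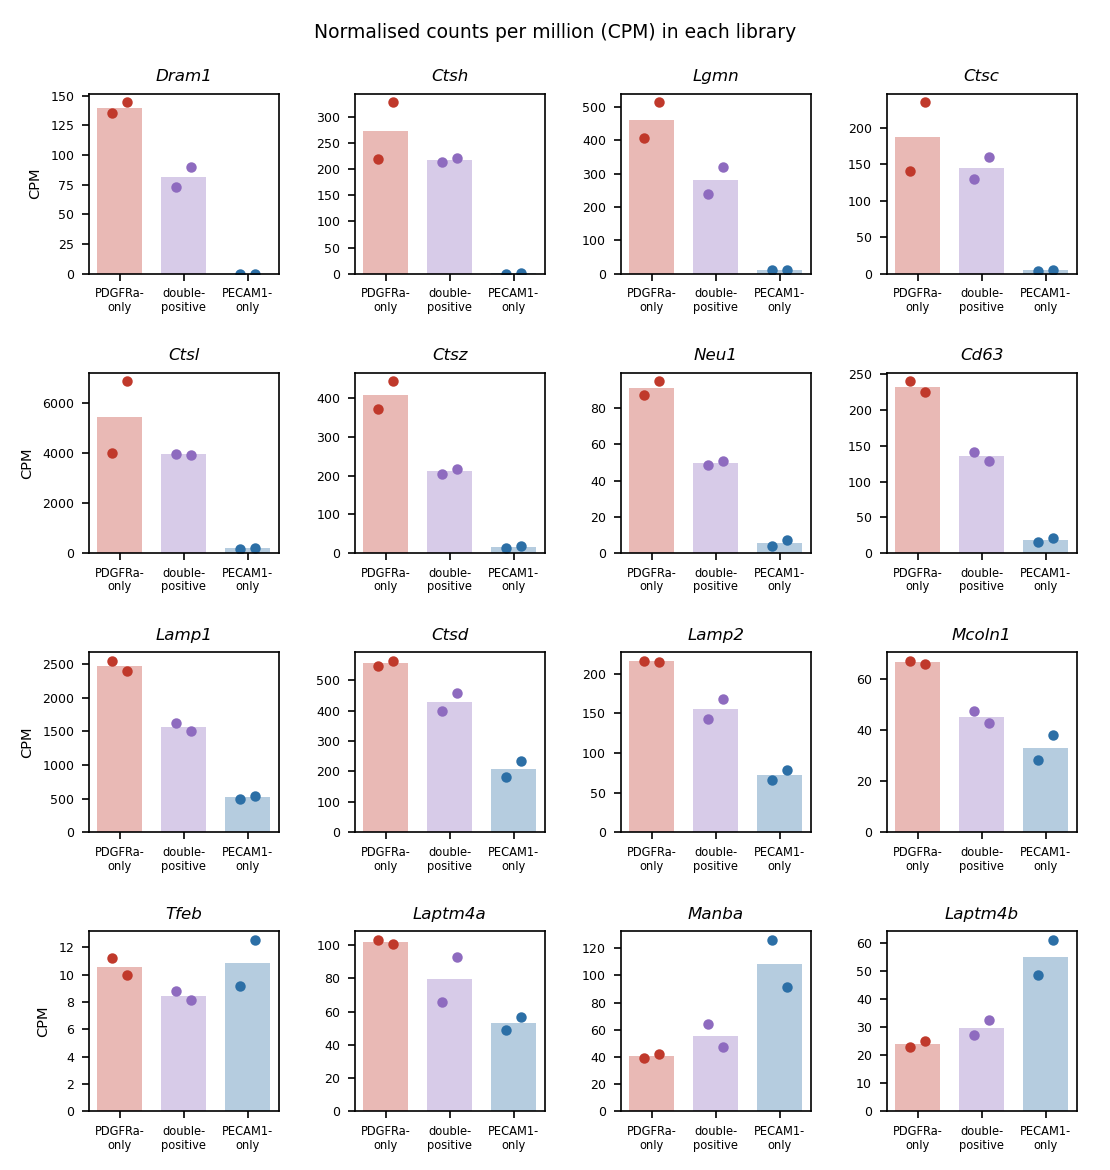
CPM (normalised counts) of 16 lysosomal genes, with a separate vertical axis from 0 for each gene; points are libraries and bars the mean of 2. Ctsl reaches 4021 and 6880 CPM in PDGFRa-only libraries against 167 and 204 CPM in PECAM1-only libraries, and Manba and Laptm4b are highest in PECAM1-only cells.

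Levels were compared between genes per kilobase of principal transcript. Their order at the top depended on the length taken for Ctsl, for which the annotation gives principal transcripts of 6168 and 1971 bases. With the longer one, Ctsl had 884 CPM per kilobase in PDGFRa-only, 641 in double-positive and 30.1 in PECAM1-only cells, below Lamp1 at 1109, 702 and 232. With the shorter one, chosen as an alternative after seeing the data, Ctsl had 2766, 2004 and 94.2 CPM per kilobase, above Lamp1 in both PDGFRa-carrying fractions and below it in PECAM1-only cells. The deposited RPKM values also put Ctsl above Lamp1 in every library of the PDGFRa-carrying fractions and below it in the PECAM1-only libraries. Both genes carry repeated RPKM values, so this order is weak evidence. Ctsl had 11048.3 in 3 libraries and 2806.3 in double-positive replicate 2, and Lamp1 had 2449.78 in both PDGFRa-only libraries. Ctsz, Ctsd and Lgmn followed in PDGFRa-only cells with the longer lengths, at 283, 262 and 231 CPM per kilobase. In PECAM1-only cells Lamp1 was the highest with either length and in the RPKM values, followed by Ctsd at 98.0 CPM per kilobase, while Ctsz had 11.5 and Lgmn 5.43.

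The double-positive and PDGFRa-only fractions were compared with the same PECAM1-only libraries, so their fold changes over those libraries are not independent. In double-positive over PECAM1-only cells, 37 of 45 lysosomal genes were higher, against 21.8% of all tested genes, and 29 were higher by at least 2-fold, against 14.3%. Manba and Laptm4b were again lower, at -0.96 and -0.88, against 16.4% of all tested genes, and 6 genes did not pass. The calls for Atp6v1b2, Atp6v1h, Galns, Laptm4a and Sgsh were lost under at least 1 other processing setting, and 34 of the 39 calls were kept. The values without each PECAM1-only replicate ran from 7.44 to 9.46 for Ctsh and from 2.44 to 4.78 for Naglu, and Sgsh had 2.05 without replicate 2 against 1.40 with all libraries. The median log2 fold change was 1.13 over the lysosomal genes and -0.01 over all genes tested. Dram1, Ctsh, Ctsc, Lgmn and Ctsl had the largest values, at 9.73, 8.13, 5.02, 4.69 and 4.41. Mcoln1 had 0.45 (adjusted p = 0.0662, edgeR), Galc 0.62 (adjusted p = 0.143, edgeR) and Glb1 0.20 (adjusted p = 0.366, edgeR).

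For the 41 genes that were higher in PDGFRa-only over PECAM1-only cells, the level in double-positive cells was 45.98% to 94.0% of that in PDGFRa-only cells, with a median of 72.1%. None reached the PDGFRa-only mean, but these genes were chosen through a high PDGFRa-only level, which favours low shares. The shares of all tested genes chosen in the same way were not computed. Outside this choice, Manba and Laptm4b had 136.5% and 124.3%, and Cln3, Tfeb and Arsb had 78.2%, 79.96% and 74.95%. The primitive endoderm markers, given above, were also lower in double-positive than in PDGFRa-only libraries, and the pluripotency markers were higher; their part in the result was not tested.

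In PDGFRa-only over double-positive cells, 21 of 45 lysosomal genes were higher, against 5.94% of all tested genes, and none was lower, against 11.7%. At an unadjusted p below 0.05, 25 were higher and 1, Manba, was lower, and all tested genes were not counted at that threshold. DESeq2 called 18 higher and 0 lower, and limma on the RPKM values 4 higher and 0 lower. Over all genes, 826 were higher in the main fit, 578 with DESeq2 and 208 with limma on the RPKM values. The number of genes tested differed between these settings. Arsa and Galns were higher by at least 2-fold, against 0.798% of all tested genes, at 1.12 (adjusted p = 0.00421, edgeR) and 1.04 (adjusted p = 0.00655, edgeR). The next were Ctsz (0.95), Hexa (0.89), Neu1 (0.87), Dram1 (0.78), Gaa (0.78) and Cd63 (0.78). Ctsl (0.46, adjusted p = 0.127, edgeR), Ctsc (0.37, adjusted p = 0.207, edgeR) and Ctsh (0.33, adjusted p = 0.25, edgeR) did not pass, and in each of them the PDGFRa-only libraries were far apart. The median was 0.45 over the lysosomal genes and -7.26e-05 over all genes tested. Fewer lysosomal genes were called higher when double-positive replicate 1 or 2 was left out. Higher calls over all tested genes fell as well there, with 1 library left in that fraction. Of the 21 calls, 5 were kept in every setting that used the counts: Cd63, Ctsz, Gaa, Hexa and Neu1. None of the 21 was kept in every setting, since these 5 did not pass with limma on the RPKM values.

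Across the 3 comparisons, 20 genes were higher in PDGFRa-only than in double-positive cells and in both of these than in PECAM1-only cells. A further 17 were higher in both PDGFRa-carrying fractions than in PECAM1-only cells without a call between those fractions. Mcoln1 was called higher in PDGFRa-only cells over each of the other fractions, and Glb1, Man2b1 and Galc only over PECAM1-only cells, where their calls depended on the setting. The pattern of the 20 genes and that of Mcoln1 rest on calls between PDGFRa-only and double-positive cells, none of which was kept in every setting. How many of all tested genes had each pattern was not counted.

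Lists of other genes of the lysosome and of related pathways were read in PDGFRa-only over PECAM1-only cells, where 30.1% of all tested genes were higher and 28.8% lower. Of 25 tested other hydrolases and cofactors, 18 were higher and 2 lower. Man2b2, an alpha-mannosidase, was higher by 3.19 on the log2 scale. Gm2a, the activator that presents GM2 ganglioside to hexosaminidase, fell by 1.51 and Dnase2a, the acid DNase, fell by 1.12, both on the log2 scale.

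Of 23 tested other membrane proteins and channels, 17 were higher and 2 lower. The sodium channel gene Tpcn1 changed by 3.33, the cystine exporter gene Ctns by 2.96 and Mfsd12, of cysteine import, by 2.97, while Laptm5 and Abca2 had -1.21 and -1.47. Of 15 tested other proton pump subunits, 12 were higher and 1 lower. Here 2 forms of the membrane subunit a differed in direction: Atp6v0a1 averaged 494.8 ± 60.4 CPM in PDGFRa-only and 31.2 ± 1.35 CPM in PECAM1-only cells (log2 fold change 3.99), and Atp6v0a4 averaged 1.73 ± 0.0949 and 17.2 ± 1.86 CPM (-3.31; SD, n = 2 each).

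All 6 genes of mannose 6-phosphate tagging and sorting passed, 4 higher and 2 lower, and the share of lower genes was near the 28.8% of all tested genes. Gnptab, Gnptg and Nagpa, which build the tag, changed by 2.20, 1.71 and 1.55, and the sorting receptor gene M6pr was also higher (0.76). The larger receptor Igf2r averaged 72.9 ± 11.01 CPM in PDGFRa-only and 213 ± 41.1 CPM in PECAM1-only cells (log2 fold change -1.54), and Sort1, a sorting receptor, 2.74 ± 0.248 and 23.8 ± 5.84 CPM (-3.12; SD, n = 2 each).

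Of the 5 tested genes of the MiT/TFE family and its regulators, 1 was higher and 2 were lower. The list is too short to set these shares apart from the 30.1% higher and 28.8% lower of all tested genes. Tfec, a family member, averaged 36.2 ± 8.85 CPM in PDGFRa-only and 25.6 ± 6.54 CPM in double-positive cells (SD, n = 2 each) and had 1 count in the PECAM1-only libraries, a ratio of 463 for PDGFRa-only (exact 95% counting interval 82.6 to 18330) and 339 for double-positive cells (60.4 to 13420). Mitf and Mtor, a kinase that restrains TFEB, were lower, at -1.39 and -0.59, and Tfe3 had 0.25 (adjusted p = 0.263, edgeR). Ragulator and Rag proteins dock that kinase on lysosomes, and their list of 11 genes also held Flcn and Slc38a9. Of the 11, 7 were higher (Flcn 1.26, Rragc 1.28, Lamtor1 1.31) and 2 lower (Rragd -1.49, Rragb -4.07). Rragb had 0 and 2 counts in PDGFRa-only and 22 and 22 counts in PECAM1-only libraries, so the size of its fall is uncertain.

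Both tested cystatins, inhibitors of cathepsins, were higher: Cst3 by 4.71 and Cstb by 2.82. Of 23 core autophagy genes, 10 were higher and 3 lower, against 30.1% and 28.8% of all tested genes, so their share of higher calls was nearer the background. Gabarap (2.78), Gabarapl1 (1.85) and Atg9a (1.71) were higher, and the starting kinase Ulk1 (-2.15), Atg14 (-0.99) and Gabarapl2 (-1.02) were lower. Of 8 genes of late endosome tethering and fusion, 2 were higher (Vps18 1.69, Rab7 0.93) and 1 lower (Vps41 -0.50). The higher share was near that of all tested genes, in a list of few genes.

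**Figure D4:**
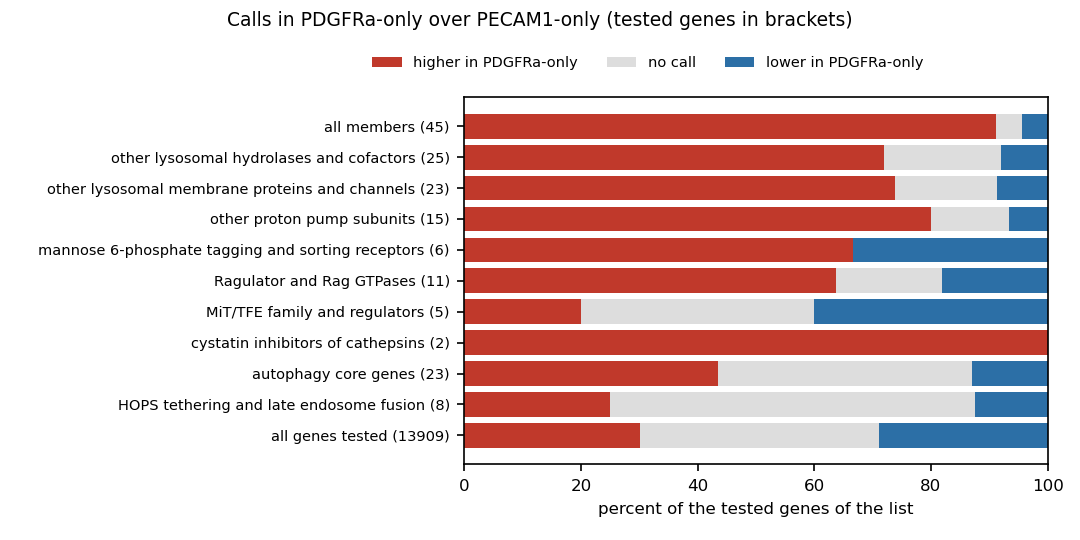
Percent of the tested genes of each list (horizontal axis) called higher, not called or called lower in PDGFRa-only over PECAM1-only cells, with the number tested in brackets. The lysosomal genes (41 of 45 higher) and the other lysosomal lists have larger higher shares than all 13909 genes tested (30.1%). The MiT/TFE list (1 of 5) and the fusion list (2 of 8) are too short to set apart from that share.

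Several lysosomal genes share sequence with neighbours on the other strand, and the sources used here do not state whether counting used strand. Exons of Ctsb overlapped Fdft1, those of Ctsa overlapped Pltp, those of Lamp1 overlapped Grtp1 and those of Ppt1 overlapped Cap1, and Glb1 overlapped Tmppe on the same strand. The overlap covered 12.8% of the exonic bases of Ctsb, 10.5% of Ctsa, 9.31% of Lamp1, 3.51% of Ppt1 and 5.49% of Glb1. These shares do not bound the error, since reads in the shared bases were not told apart. Ctsd overlapped Gm49369 on the same strand (34.4%) and Ctsl overlapped the antisense Gm47123 (26.8%), neither of which is in the count table. Sgsh overlapped Card14 (21.6%) and Arsa overlapped C230037L18Rik (18.8%), with 12 and 14 counts of those neighbours over all libraries. Further overlaps are not listed.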

How the data were processed

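Gene expression was measured by RNA sequencing in 6 libraries, 2 for each of 3 sorted fractions. The authors deposited raw counts per gene and a table of RPKM values. Per the submitters' processing notes the tools included HTSeq 0.5.4p3, TopHat2 2.0.8b, Bowtie2 2.1.0 and cutadapt 1.2.1, in no stated order, with build GRCm38; the strand setting is not given in the sources used here. How the authors made the deposited RPKM values is not stated, and some abundant genes carry the same value in several libraries, so RPKM served only as an alternative.

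Counts were fitted with edgeR 4.0.16 in R 4.3.3: filterByExpr with a minimum count of 10 kept 13909 of 38561 genes, libraries were scaled by TMM, and a robust quasi-likelihood model with 1 mean per fraction used all 6 libraries (3 residual degrees of freedom, biological coefficient of variation 13.5%). Tests were two-sided, adjusted by Benjamini-Hochberg over all tested genes. The script was tested on simulated data. A positive log2 fold change in "A over B" means that A was higher. Alternatives were other scalings, count filters, DESeq2 1.42.0, only the fractions compared, a replicate block, each library left out, and limma 3.58.1 on log2(RPKM + 1). Positions, types and transcript lengths (longest principal transcript) came from GENCODE M21; near-identical copies were sought with blastn 2.17.0 (at least 95% identity over 200 bases). Figures were drawn with matplotlib 3.10.9.

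The lysosomal genes, the other gene lists and the rule for named genes were chosen with earlier results of these data known. The rule gave every library's value for up to 8 largest rises and 8 largest falls with a mean of at least 5 CPM, the 5 highest per kilobase, and Lamp1, Lamp2, Laptm4a, Laptm4b, Tfeb and Mcoln1; from each other list it took up to 3 genes with the smallest p in each direction (some of these are not reported here), and Csf1r, M6pr, Tfe3, Cd63-ps and RP23-81C12.3 were added after their values were seen. Because the RNA was amplified and molecules were not tagged, intervals on counts cover counting error only.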

Additional observations from a re-analysis of the deposited data

How the results depend on the processing

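Over all settings, 37 to 41 lysosomal genes were higher in PDGFRa-only over PECAM1-only cells, 32 to 39 in double-positive over PECAM1-only cells and 4 to 21 in PDGFRa-only over double-positive cells; 2, 2 and 0 were lower in every setting. With each library left out, the higher counts were 38 to 41, 32 to 39 and 6 to 21. The third comparison was thus the least stable, with 4 higher genes from limma on RPKM. Higher calls over all genes were also fewer there, 208 with limma on RPKM against 826 in the main fit. The labels do not say whether same-numbered libraries share a sort. Across genes, the deviations from the fraction means in replicate 1 correlated between fractions at -0.03, 0.18 and 0.13 in the 3 comparisons, and with 2 numbers this does not settle the pairing; the replicate block left 41, 37 and 21 genes higher. Upper-quartile and library-size scaling moved the median of all genes by -0.20 and -0.28 in PDGFRa-only over PECAM1-only cells and by -0.17 and -0.22 in double-positive over PECAM1-only cells. The share of all calls that were higher was 51.1% with TMM against 41.5% and 37.8% in the first comparison, 57.0% against 43.3% and 39.8% in the second, and 33.7% against 26.4% and 21.9% in the third; the summed lysosomal ratio to PECAM1-only cells was 4.64 and 4.39 for PDGFRa-only and 3.36 and 3.26 for double-positive cells under those scalings. Directions reversed only for log2 fold changes without a call. In double-positive over PECAM1-only cells, Man2b1 had -0.10 with upper-quartile scaling, -0.15 with library-size scaling, -0.0002808 with DESeq2 and -0.050 with RPKM; Cln3 had -0.050 with upper-quartile scaling, -0.10 with library-size scaling and -0.048 with RPKM; Glb1 had -0.010 with library-size scaling and -0.071 with RPKM. With libraries left out, Man2b1 ran from -0.10 to 0.30 and Cln3 from -0.17 to 0.38 there, and Tfeb from -0.23 to 0.21 in PDGFRa-only over PECAM1-only cells. In PDGFRa-only over double-positive cells, Fuca1 had -0.040 with RPKM, and with libraries left out the ranges were -0.051 to 0.70 for Ctsc, -0.23 to 0.35 for Fuca1, -0.49 to 0.72 for Galc, -0.027 to 0.57 for Npc1, -0.042 to 0.42 for Atp6v1a and -0.40 to 0.47 for Atp6v1h, the negative values all without PDGFRa-only replicate 2. The cause was not tested. Depth limited Arsb, with 2 to 9 counts per library, and the PECAM1-only levels of Dram1 and Ctsh.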
